A study of Parasteatoda tepidariorum with 12 samples.

Results

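The gene described here is g5611 (aug3.g5611), 1 of 27990 gene models counted in the spider *Parasteatoda tepidariorum* (common house spider), and the only gene model whose deposited description is fibroblast growth factor 8-like. It was selected on its measured counts at stage 2 and stage 3, because the response to knockdown of *fuchi nashi* (*fuchi*) differs between those stages, so its values at those stages are given as a description, without a test, and early stage 5 is the stage at which it was tested. The name rests on the deposited description alone, since no sequence of the gene was examined here.

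RNA was counted in 12 libraries of pooled whole embryos of the Osaka isolate, in 6 groups of 2. Embryos came from *fuchi* pRNAi eggs and from untreated eggs at 3 ages: 11 h after laying (stage 2), 20 h (stage 3) and 31 h (early stage 5). In this period the germ disc, the cell sheet that makes the body of the spider, is established. Parental RNAi (pRNAi) means that the mother receives double-stranded RNA of the gene and her later eggs are depleted of its transcript. The 2 replicates are 2 females, 29D (replicate 1) and 29G (replicate 2). Each laid untreated eggs before the first injection and *fuchi* pRNAi eggs at day 19 (replicate 1) or day 18 (replicate 2) of the labels. No eggs of females injected with a control RNA are among the samples, so the injection, the later laying and the loss of *fuchi* cannot be told apart.

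Fibroblast growth factors (FGFs) are secreted proteins that bind receptor tyrosine kinases together with heparan sulfate chains on the cell surface. The bound receptor recruits adaptor proteins, which switch on the GTPase Ras and through it the Raf, MEK and ERK kinases. ERK modifies transcription factors of the Ets family, and Sprouty and Spred proteins dampen the pathway. In vertebrates FGF8 acts in gastrulation and in the outgrowth of limb buds, and in *Drosophila* the FGF8-like ligands Pyramus and Thisbe act on the receptor Heartless in the migrating mesoderm. The targeted gene *fuchi* encodes a GATA-like transcription factor.

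Totals were between 5662766 and 8857990 counts per library, and 3 counts corresponded to 0.339 to 0.530 CPM (counts relative to the library size), a limit that covers counting error only. The targeted transcript (g26874) was lower in the *fuchi* pRNAi libraries. It had 124 and 47 counts in *fuchi* pRNAi against 524 and 298 in untreated embryos at stage 2 (log2 fold change -2.27 ± 0.41, SE, n = 2 per group, and between -2.96 without the first and -1.81 without the second *fuchi* pRNAi replicate), 556 and 344 against 1660 and 1418 at stage 3 (-2.07 ± 0.27), and 860 and 491 against 1815 and 1632 in the embryos of early stage 5 (-1.40 ± 0.22). The edgeR quasi-likelihood test called it at stage 3 (adjusted p = 0.00552) and early stage 5 (adjusted p = 0.00705), and at stage 2 it was called only by other fits, among them the one that blocks on the female (adjusted p = 0.983 without the block, 6.48e-13 with it). Each call failed once 1 *fuchi* pRNAi replicate was dropped (edgeR adjusted p = 0.018 and 0.0339 at stage 3, 0.0454 and 0.0383 at early stage 5), and that of stage 3 also when the first untreated replicate was dropped (0.0146).

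The g5611 transcript was scarce in *fuchi* pRNAi embryos at stage 2, more abundant than in untreated embryos at stage 3, and at nearly the same level in both at early stage 5. At stage 2 g5611 had 45 and 42 counts in *fuchi* pRNAi embryos, against 205 and 177 counts in untreated embryos. At stage 3 it had 887 and 410 counts in *fuchi* pRNAi embryos, against 292 and 182 counts in untreated embryos. The early stage 5 counts were 1164 and 541 counts in *fuchi* pRNAi embryos, against 1006 and 685 counts in untreated embryos. Both *fuchi* pRNAi libraries thus lay below both untreated libraries at stage 2 and above both at stage 3, and the groups overlapped at early stage 5.

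**Figure D1:**
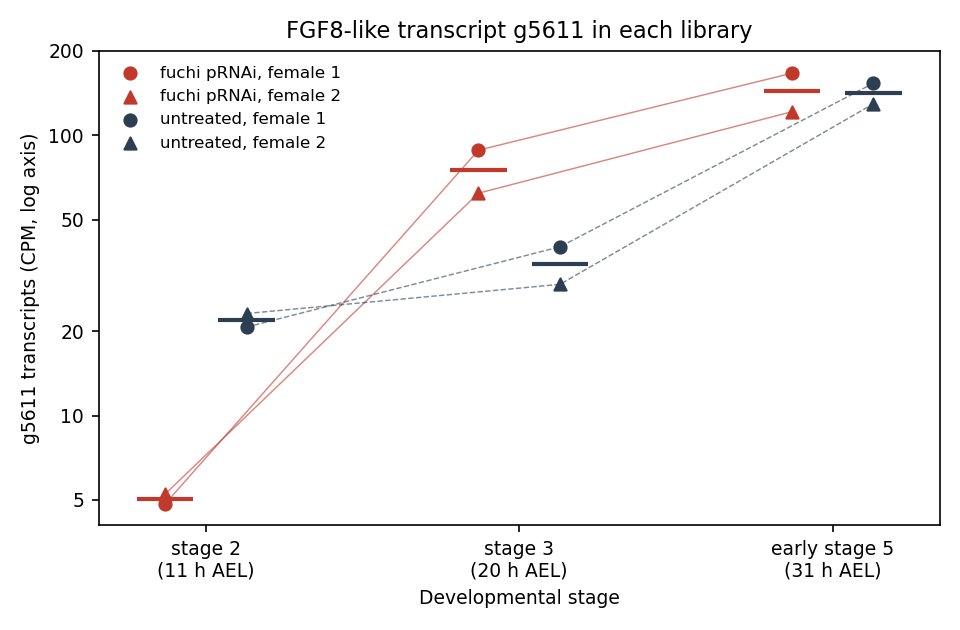
Level of the FGF8-like transcript g5611 in each of 12 libraries, in CPM with TMM factors over all libraries (log axis), by stage (AEL, after egg laying), for *fuchi* pRNAi (red) and untreated embryos (dark), with circles for the first female, triangles for the second and bars for the group means. The *fuchi* pRNAi points lie at 4.84 and 5.24 CPM at stage 2, below the untreated ones at 20.7 and 23.1 CPM, and above the untreated ones at stage 3.

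Scaled to depth, g5611 averaged 5.04 ± 0.28 CPM in *fuchi* pRNAi and 21.9 ± 1.72 CPM in untreated embryos at stage 2 (SD, n = 2 each). At stage 3 it averaged 75.2 ± 18.6 CPM in *fuchi* pRNAi and 34.7 ± 7.50 CPM in untreated embryos. In embryos of early stage 5 it averaged 144 ± 31.9 CPM in *fuchi* pRNAi and 141 ± 16.9 CPM in untreated embryos. Ordered by level, the groups ran from *fuchi* pRNAi at stage 2 through untreated at stage 2, untreated at stage 3 and *fuchi* pRNAi at stage 3 to the 2 groups of early stage 5. In CPM the libraries of neighbouring groups overlapped only at early stage 5. In RPKM, the deposited values per length, the untreated libraries of stage 2 (5.55 and 6.45) and stage 3 (9.07 and 6.41) overlapped as well, so the order of those groups depends on the scaling.

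The log2 fold change of g5611, *fuchi* pRNAi over untreated, was -2.13 ± 0.34 (SE) at stage 2 and 1.13 ± 0.34 at stage 3. Both females showed it at nearly the same size. In the first female, the *fuchi* pRNAi eggs held 23.3% of the untreated level at stage 2 (exact 95% counting interval of the ratio 0.165 to 0.322), and in the second female 22.3% (0.156 to 0.314). At stage 3 the ratio was 2.23 in the first female (1.95 to 2.55) and 2.14 in the second (1.79 to 2.56). These intervals cover counting error only, not the spread between libraries, and are given as a description. In a fit of all 12 libraries the effect at stage 3 exceeded that at stage 2 by 3.23 ± 0.41 on the log2 scale, the difference by which the gene was chosen. It stood at rank 161 of the 14498 gene models in that fit, so larger differences of this sign were found in other gene models.

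At early stage 5, which had no part in the choice of the gene, the log2 fold change was -0.05 ± 0.25 (95% interval -0.61 to 0.51), and g5611 did not pass the test (edgeR quasi-likelihood test, adjusted p = 0.977, and 0.956 with the female as a block). Over all gene models tested at that stage, 3.12% were called at an adjusted p under 0.01. The females fell on either side of equality, with a ratio of 1.02 in the first (0.933 to 1.11) and 0.911 in the second (0.812 to 1.02). The sign of this small value turned when the 12 libraries were fitted together (0.03, adjusted p = 1), and when the second *fuchi* pRNAi or the first untreated replicate was left out (0.14 and 0.08).

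**Figure D2:**
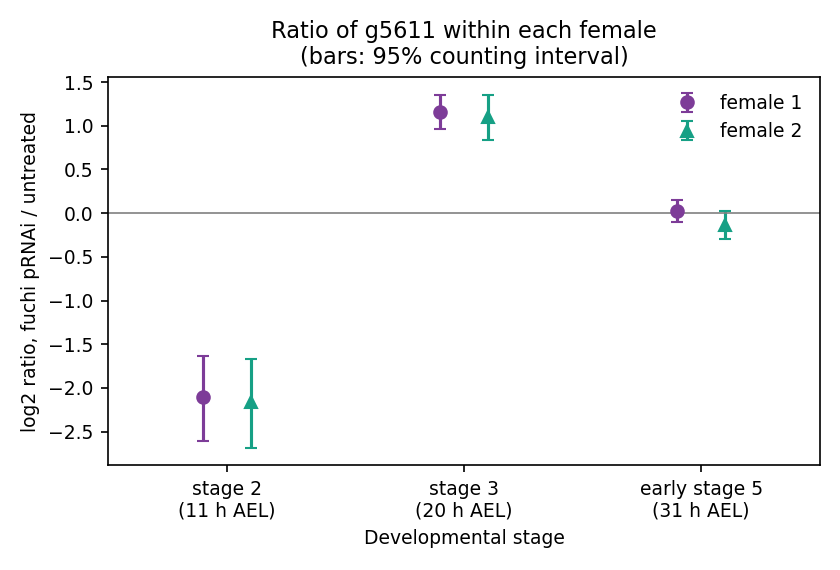
Log2 ratio of g5611 within each female, *fuchi* pRNAi over untreated, at the 3 stages, with bars for the 95% counting interval. Both females lie near -2.1 at stage 2 (-2.10 and -2.16), near 1.1 at stage 3 (1.16 and 1.10) and near 0 at early stage 5 (0.02 and -0.13).

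Read across time, the transcript accumulated in both treatments but on a different schedule. In *fuchi* pRNAi embryos the larger fold increase fell between stage 2 and stage 3, where the level grew 14.9-fold (log2 3.90 ± 0.31, SE). It grew a further 1.91-fold to early stage 5 (log2 0.93 ± 0.27). In untreated embryos it grew 1.59-fold between stage 2 and stage 3 (log2 0.67 ± 0.28) and 4.07-fold between stage 3 and early stage 5 (log2 2.02 ± 0.28). The first interval gave an 18.3-fold and an 11.8-fold increase in the *fuchi* pRNAi eggs of the first and second female, against 1.93-fold and 1.27-fold in their untreated eggs. The second interval gave 1.88-fold and 1.95-fold increases in the *fuchi* pRNAi eggs, against 3.83-fold and 4.40-fold in the untreated eggs. Per length the untreated eggs of the second female showed no increase in the first interval (6.45 RPKM at stage 2 and 6.41 RPKM at stage 3). These changes share libraries with the choice of the gene and are therefore not tested.

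Per length, g5611 had 1.30 and 1.42 RPKM (reads per kilobase, scaled to library size) in *fuchi* pRNAi and 5.55 and 6.45 RPKM in untreated embryos at stage 2. Among the gene models detected in a library, 32.6% and 31.7% lay below it in *fuchi* pRNAi and 44.4% and 45.4% in untreated embryos. By stage 3 these shares were 76.6% and 70.7% in *fuchi* pRNAi and 63.9% and 58.4% in untreated embryos. It reached 29.6 and 21.5 RPKM in *fuchi* pRNAi and 27.5 and 25.5 RPKM in untreated embryos at early stage 5, above 80.1% to 84.9% of detected gene models in all 4 libraries. The transcript thus moved from the lower part of the distribution at stage 2 to its upper part at early stage 5.

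The same change of side was counted over all gene models. Of 11386 gene models tested at both stages, 368 (3.23%) were at least 2-fold lower in *fuchi* pRNAi at stage 2 and 527 (4.63%) at least 2-fold higher at stage 3, and 17 (0.149%) met both, which is the number that the 2 shares multiplied give (17.0). In 5 of those 17 (0.0439% of all), g5611 among them, the libraries of the groups did not overlap at either stage. The other members, named after their values were seen, were g13778 (calcitonin receptor), g17630 (no description), g20216 (major facilitator superfamily domain-containing protein 6-like) and g2318 (WD repeat-containing protein 27-like). The mean level of g5611 was 70.3 CPM and those of the other members 0.541 to 13.1 CPM. The log2 fold changes of the other members lay between -1.31 and -1.02 at stage 2, where that of g5611 was -2.13, and between 1.06 and 2.49 at stage 3, where g13778 (2.49) and g17630 (1.23) exceeded the 1.13 of g5611. Without regard to overlap, 3 gene models including g5611 had changes at least as large as its own at both stages. These counts describe the pattern that chose the gene and are no evidence for it.

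RNA of whole embryos does not tell fewer cells of a type from less RNA per cell. Summed over Pt-sog and Pt-dpp, of the BMP pathway, and Pt-GATA1, a set of 3 genes listed for germ-disc cells outside the endoderm, the level was 44.0 to 65.3 CPM in *fuchi* pRNAi and 131 to 164 CPM in untreated embryos at stage 2. The sum was 82.6 to 144 CPM in *fuchi* pRNAi and 32.6 to 42.3 CPM in untreated embryos at stage 3, and 134 to 329 CPM against 218 to 282 CPM at early stage 5. The sum turned in the same direction as g5611, but no gene of the set did so. Its stage 2 difference came from Pt-GATA1 and Pt-dpp, and its stage 3 difference from Pt-sog. In the paper the germ disc begins to form at stage 3, so the stage 2 sum does not report germ-disc cells. The set does not mark a single population, since dpp signalling in this embryo is known from the cumulus. At stage 2 Pt-GATA1 had 23.03 to 27.7 CPM in *fuchi* pRNAi against 55.9 to 112 CPM in untreated embryos, and Pt-dpp 20.3 to 37.0 against 51.8 to 75.6 CPM. At stage 3 Pt-sog had 69.9 to 123.1 CPM in *fuchi* pRNAi against 7.39 to 18.9 CPM in untreated embryos, while Pt-GATA1 and Pt-dpp overlapped between the groups. Counts of Pt-sog were under the floor of 3 counts or near it in every stage 2 library (0 to 0.646 CPM).

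Of the endoderm markers, *fuchi* is the target itself, so its level, given above, is not read here as a measure of endoderm. Pt-GATA5 was near 0 in every stage 2 library (0 to 0.430 CPM in *fuchi* pRNAi, 0.131 to 0.303 CPM in untreated embryos) and had 2.69 to 5.15 CPM in *fuchi* pRNAi against 14.8 to 15.01 CPM in untreated embryos at stage 3. Pt-GATA4 was near 0 at stage 2 as well and overlapped between the groups at stage 3 (0.698 to 0.757 CPM in *fuchi* pRNAi, 0.323 to 1.78 CPM in untreated embryos). At early stage 5 both were lower in *fuchi* pRNAi than in untreated embryos. Pt-GATA5 had 0 to 2.02 against 22.4 to 26.04 CPM, and Pt-GATA4 0 to 0.286 against 37.0 to 47.6 CPM. Summed with *fuchi* the set had 5.99 to 14.0, 58.0 to 58.8 and 112 to 123.1 CPM in *fuchi* pRNAi over the stages, against 39.4 to 53.1, 243.8 to 244.1 and 336 to 382 CPM in untreated embryos.

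Markers of the germ-disc rim (Pt-hh, Pt-fkh, Pt-otd) summed to 33.2 to 33.8 CPM in *fuchi* pRNAi and 110 to 121 CPM in untreated embryos at stage 3, with Pt-otd overlapping between the groups (2.42 to 4.58 and 2.10 to 10.7 CPM). Those of the cumulus and blastopore (Pt-Ets4, Pt-msx1, Pt-Delta) summed to 99.5 to 132 CPM in *fuchi* pRNAi and 276 to 285 CPM in untreated embryos at that stage. Within this set Pt-Delta had 32.1 to 53.9 CPM in *fuchi* pRNAi against 170 to 175 CPM in untreated embryos. Pt-Ets4 had 65.3 to 72.0 against 99.1 to 111 CPM, whereas Pt-msx1 overlapped (2.12 to 5.98 and 1.77 to 3.83 CPM). The paper describes early Pt-hh and Pt-Delta, at stage 3 too, as resembling *fuchi* in pattern. Neither the rim sum nor the cumulus and blastopore sum therefore reports a single cell population at stage 3. At early stage 5 Pt-Ets4 was the higher one in *fuchi* pRNAi, with 102 to 105 CPM against 68.9 to 71.9 CPM in untreated embryos. Pt-twist (g14287), listed as a mesoderm marker, had 12.4 to 24.2 CPM in *fuchi* pRNAi and 19.4 to 23.4 CPM in untreated embryos at stage 3. At early stage 5 it had 8.96 to 13.4 against 1.32 to 4.72 CPM. In the paper g14287 was stained at the embryonic pole at stage 3, so its level at that stage is not read here as mesoderm. Every gene of these 5 marker sets had a count in both libraries of each group at stage 3. The part of these cell populations in the g5611 values was not tested.

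On the Ptep_1.0 assembly g5611 lies on scaffold 671, from 239636 to 329201 on the plus strand. Its span of 89566 bases is longer than that of 95.8% of gene models (median 11890 bases). It is the first of 3 gene models on the scaffold, and none of them overlap. The nearest is g5612, on the minus strand 70079 bases further along, which is described as high affinity copper uptake protein 1, a membrane transporter for copper. RefSeq (assembly CAS_Ptep_4.0) lists LOC107453597, the NCBI gene of g5611, next to the same neighbour.

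The neighbour g5612 was higher in *fuchi* pRNAi at stage 3 but did not show the drop at stage 2. It had 1679 and 1496 counts in *fuchi* pRNAi against 886 and 1149 counts in untreated embryos at stage 2 (log2 fold change 0.60 ± 0.29, edgeR adjusted p = 0.983). At stage 3 it had 464 and 449 counts in *fuchi* pRNAi against 189 and 93 counts in untreated embryos (1.49 ± 0.38, edgeR adjusted p = 0.182, and 0.000322 with the female as a block). The early stage 5 counts of g5612 were 545 and 225 in *fuchi* pRNAi against 275 and 141 in untreated embryos (0.83 ± 0.31, edgeR adjusted p = 0.244). The neighbour was most abundant at stage 2, where g5611 was scarcest.

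Of the 70 gene models found by description for FGF signalling, g5611 was the only ligand with more than a trace of RNA. The other ligand, g6699 (fibroblast growth factor 1), had 1 count in the first *fuchi* pRNAi replicate at stage 3, 1 count in that replicate at early stage 5 and 0 counts in the other 10 libraries. That is below the 3 counts at which a transcript could be missed.

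The receptors are the tyrosine kinases to which FGFs bind. Transcripts of g26271 (FGF receptor 3-like) were most abundant at stage 2, the stage at which the ligand was scarcest, with 678 and 683 RPKM in *fuchi* pRNAi and 877 and 763 RPKM in untreated embryos. At stage 2 g26271 had 13856 and 11838 counts in *fuchi* pRNAi embryos, against 19048 and 12317 counts in untreated embryos. At stage 3 it had 266 and 1031 counts in *fuchi* pRNAi embryos, against 429 and 615 counts in untreated embryos. By early stage 5 it had 82 and 78 counts in *fuchi* pRNAi embryos, against 169 and 117 counts in untreated embryos. In RPKM, which are scaled to depth, the groups overlapped at stage 3 only, and the *fuchi* pRNAi libraries were the lower ones at early stage 5.

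Between treatments g26271 was not called at any stage, with log2 fold changes of -0.26 ± 0.21, 0.22 ± 0.61 and -0.79 ± 0.30 from stage 2 to early stage 5 (edgeR adjusted p = 0.983, 0.951 and 0.256). Between stages it was. From stage 2 to stage 3 it fell 16.3-fold in *fuchi* pRNAi embryos (-4.03 ± 0.61 on the log2 scale, edgeR adjusted p = 0.00024) and 22.4-fold in untreated embryos (-4.48 ± 0.62, adjusted p = 9.28e-05). From stage 3 to early stage 5 it fell 6.28-fold in *fuchi* pRNAi embryos (-2.65 ± 0.60, adjusted p = 0.00492), and the change in untreated embryos was -1.72 ± 0.58 (adjusted p = 0.0372). The *fuchi* pRNAi fall of the earlier interval was -3.25 without the first and -5.80 without the second replicate of stage 3, and was called in both cases (adjusted p = 0.000152 and 7.42e-06). That of the later interval rests on the second replicate of stage 3, without which it was -0.87 (adjusted p = 0.11), and it was also not called without either replicate of early stage 5 (adjusted p = 0.0542 and 0.0235). In this fit 12.6% of gene models were called lower from stage 2 to stage 3 in *fuchi* pRNAi and 15.7% in untreated embryos.

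Set side by side per length, the receptor g26271 exceeded g5611 523-fold and 479-fold in the *fuchi* pRNAi libraries of stage 2, and 158-fold and 118-fold in the untreated ones. By early stage 5 the ligand exceeded the receptor, 8.35-fold and 4.08-fold in *fuchi* pRNAi and 3.50-fold and 3.44-fold in untreated embryos. At stage 3 the libraries were divided. The ligand was 1.96 times the receptor in the first *fuchi* pRNAi library and 0.234 times in the second, against 0.400 and 0.174 times in the untreated ones. These are ratios of RPKM, a level per kilobase, and say nothing of protein.

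**Figure D3:**
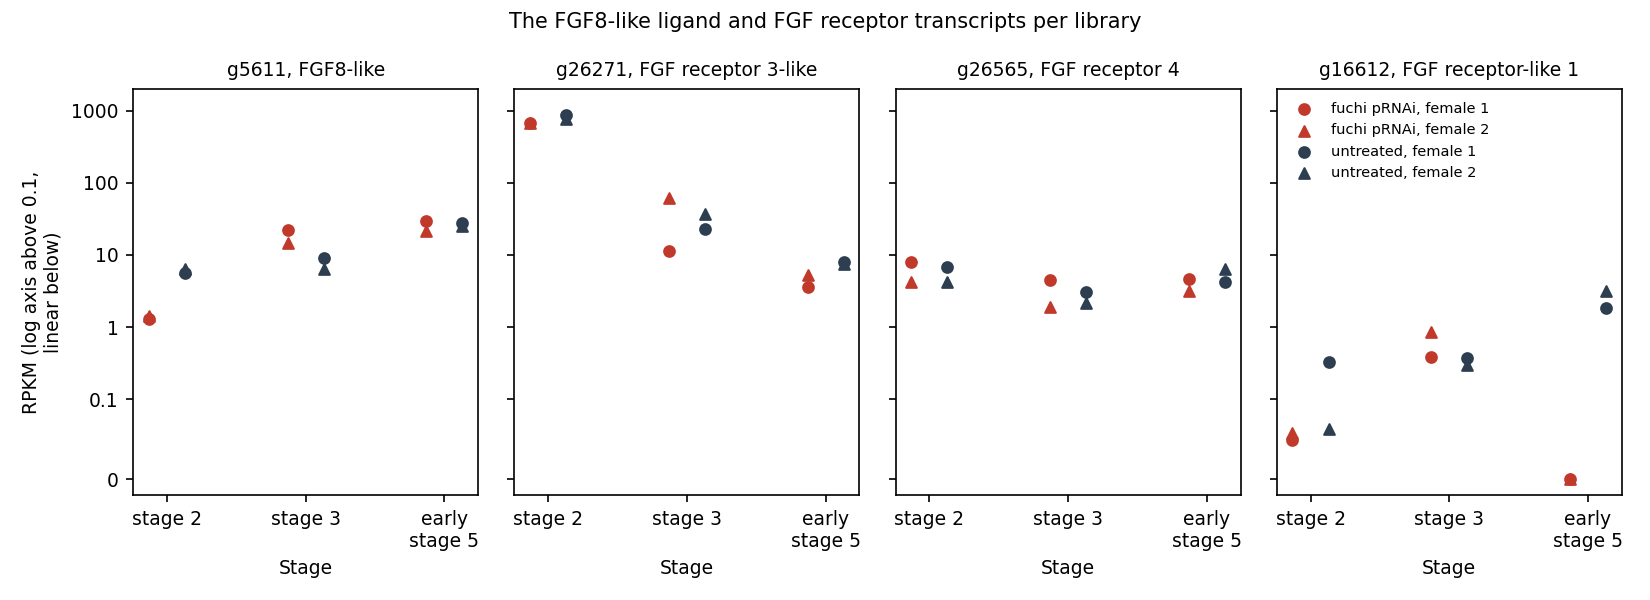
RPKM of the FGF8-like ligand g5611 and of the FGF receptor models g26271, g26565 and g16612 in each library (log axis above 0.1, linear below), by stage, for *fuchi* pRNAi (red) and untreated embryos (dark), with circles for the first female and triangles for the second. The receptor g26271 is lower at each later stage, g5611 is highest at early stage 5 (untreated embryos of the second female had 6.45 RPKM of it at stage 2 and 6.41 RPKM at stage 3), and g16612 is at 0 in both *fuchi* pRNAi libraries of early stage 5.

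A second receptor kinase, g26565 (FGF receptor 4), was low throughout, with a mean of 4.44 RPKM over the 12 libraries and a lowest value of 1.90 RPKM. Its log2 fold changes were 0.14 ± 0.40, 0.16 ± 0.46 and -0.42 ± 0.30 over the stages, with edgeR adjusted p of 0.983, 0.952 and 0.668. The females differed more than the treatments at stage 2, with 253 and 113 counts in *fuchi* pRNAi against 228 and 107 counts in untreated embryos.

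In the main fit, without the female as a block, 1 pathway member was called after *fuchi* pRNAi, g16612. It is described as FGF receptor-like 1, which in vertebrates is an FGF-binding membrane protein without a kinase domain. Some other fits called further members, as given below. At early stage 5 g16612 had 0 and 0 counts in *fuchi* pRNAi embryos, against 39 and 50 counts in untreated embryos. This was at least 30.2-fold lower, taking 3 counts over the *fuchi* pRNAi group (edgeR quasi-likelihood test, adjusted p = 0.00262, and 0.0105 without the first *fuchi* pRNAi replicate). Earlier it was near the detection limit, with 1 and 1 counts in *fuchi* pRNAi against 7 and 1 counts in untreated embryos at stage 2, and 9 and 14 against 7 and 5 counts at stage 3. In untreated embryos it rose 17.0-fold between stage 2 and early stage 5 (log2 fold change 4.09 ± 0.83, edgeR adjusted p = 0.00125), an interval in which g5611 increased as well.

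The remaining receptor models were all but silent. Over the 12 libraries together g88 had 34 counts, g1146 13, g89 8 and g25909 6 (all receptor-like 1), and g10124 had 7 and g22820 0 (both FGF receptor 2-like). The last pair share the NCBI gene LOC107456572 and sit on different scaffolds, so they may be counted as parts of 1 gene.

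Counted over the 69 pathway members other than g5611, 46 were tested at stage 2, and 0 were called higher and 0 lower in *fuchi* pRNAi (edgeR quasi-likelihood test, background 0%). None of the 46 had an unadjusted p under 0.05, against 3.42% of all gene models. The likelihood ratio test (background 0.0331%), DESeq2 (0.0993%) and the fit with the female as a block (0.77%) also called 0. At stage 3, 53 were tested and 0 called (background 0.27%), and 7 had an unadjusted p under 0.05 (9.3% of all gene models did). The likelihood ratio test (background 1.06%) and DESeq2 (0.946%) called 0 at this stage too. At early stage 5, 50 were tested and 1 was called, g16612, which was lower (background 2.96% lower and 0.162% higher), and 11 had an unadjusted p under 0.05 (14.0% of all gene models did). The median log2 fold change of the members tested was 0.06, 0.16 and 0.03 from stage 2 to early stage 5, where that of all gene models was 0.01, 0.01 and -0.01.

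**Figure D4:**
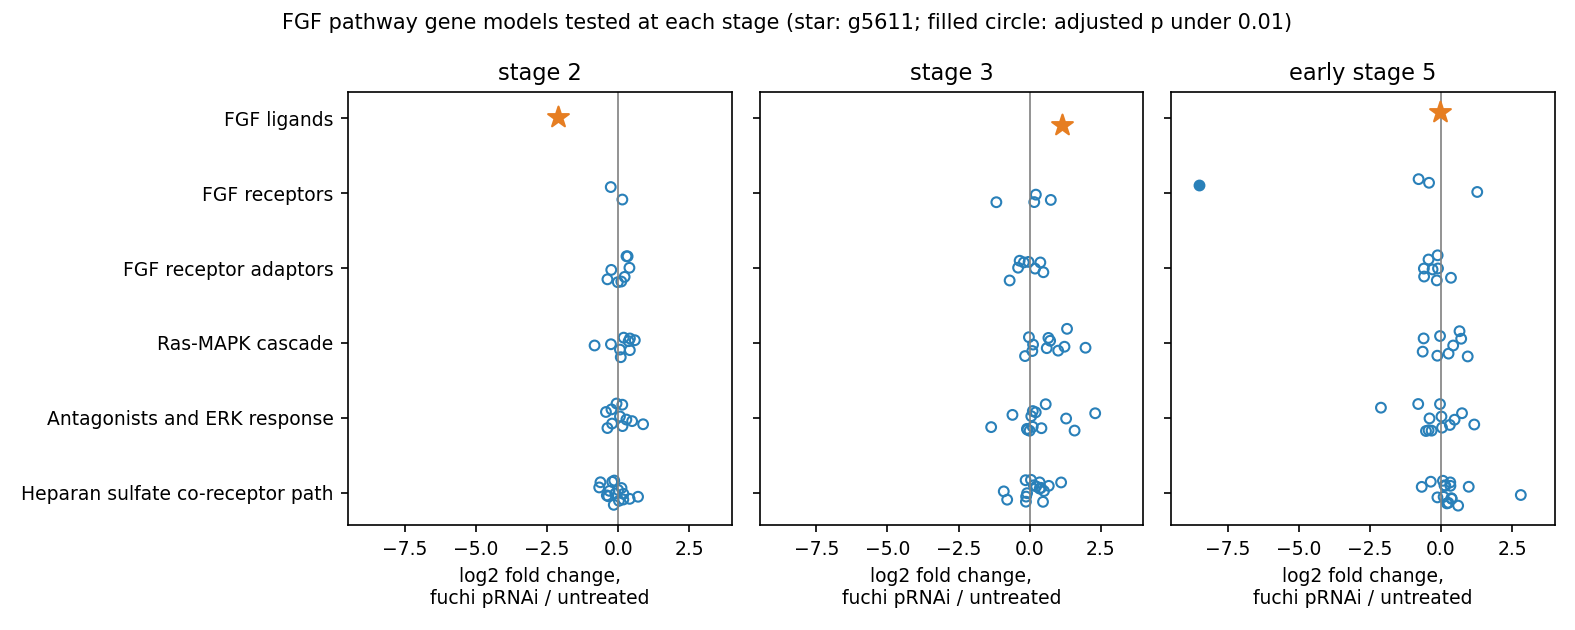
Log2 fold change, *fuchi* pRNAi over untreated, of every tested gene model of the 6 FGF pathway lists at the 3 stages, with g5611 as a star and a filled circle for a member called at an adjusted p under 0.01. The star lies at -2.13, 1.13 and -0.05, and the only filled circle is g16612 at early stage 5.

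Among receptor adaptors, the most abundant were g25140 (enhancer of sevenless 2B, the *Drosophila* protein that links receptors to Ras activation) and g26091 (SHC-transforming protein 1-like, which docks on activated receptors). The g25140 level was 32.2 to 44.6 RPKM in *fuchi* pRNAi and 26.9 to 39.4 RPKM in untreated embryos over the 3 stages. Its log2 fold changes of 0.29 ± 0.22, 0.19 ± 0.28 and -0.12 ± 0.22 did not pass the test. Those of g26091 were -0.38 ± 0.25, 0.48 ± 0.37 and -0.44 ± 0.26, likewise not called. The adaptors, 8 tested at each stage, thus gave no call with or without the block. The background was 0%, 0.27% and 3.12% without it, and 0.77%, 2.6% and 7.98% with it.

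In the Ras-MAPK cascade 0 of 11 tested members were called at stage 3 (background 0.27%). Of the 11, 9 had positive log2 fold changes, where 50.9% of all gene models did. The list median was 0.66, beside 0.01 over all gene models. The most abundant was g2424 (GTPase HRas, the switch upstream of Raf). It had 60.0 and 59.2 RPKM in *fuchi* pRNAi and 39.0 and 28.3 RPKM in untreated embryos at stage 3 (log2 fold change 0.72 ± 0.26, edgeR adjusted p = 0.408). Next was g27256 (mitogen-activated protein kinase kinase 1, which phosphorylates ERK), with 38.1 and 50.3 RPKM in *fuchi* pRNAi and 25.1 and 29.2 RPKM in untreated embryos at stage 3 (0.60 ± 0.27, adjusted p = 0.535). Neither passed the test at that stage. At stage 2 the list median was 0.19 (7 of 9 positive), and at early stage 5 it was 0.26 (5 of 9 positive).

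Among antagonists and targets of ERK, the most abundant were g5499 (Spred 2, which inhibits Ras signalling) and g3964 (C-ets-2-like, an Ets transcription factor). The g5499 log2 fold changes were 0.15 ± 0.23, 0.06 ± 0.26 and 0.01 ± 0.25. The values of g3964 were 0.06 ± 0.29, 0.41 ± 0.31 and -0.53 ± 0.26, and neither gene was called at any stage. In this list 2 other Ets genes, named after their values were seen, were called only in some fits. One, g19580 (C-ets-1-like), had 277 and 200 counts in *fuchi* pRNAi against 66 and 65 counts in untreated embryos at stage 3 (log2 fold change 1.58 ± 0.36). It was not called without the block (edgeR adjusted p = 0.108) and was called when the female was fitted as a block (adjusted p = 0.00034), the only member called in that fit at stage 3 (background 2.6%). The other, g7547 (c-ets-2-A-like), had 25 and 17 counts in *fuchi* pRNAi against 78 and 99 counts in untreated embryos at early stage 5 (-2.11 ± 0.38, edgeR quasi-likelihood adjusted p = 0.0125, 6.41e-06 with the block, 0.000253 by the likelihood ratio test and 0.00522 by DESeq2).

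On the heparan sulfate side, 0 of 16 tested members were called at each stage by the edgeR quasi-likelihood test without the block. The background was 0%, 0.27% and 3.12% from stage 2 to early stage 5. The most abundant were g11833 (glypican-6, a cell-surface proteoglycan) and g14103 (heparan-sulfate 6-O-sulfotransferase 2-like, which adds sulfate groups to the chains). The g11833 log2 fold changes were -0.63 ± 0.52, -0.79 ± 0.31 and -0.13 ± 0.25, and those of g14103 were 0.11 ± 0.23, 0.67 ± 0.33 and 0.38 ± 0.32. One further member, chosen after its values were seen, was g18939 (Sulf-1), a sulfatase that removes such 6-O-sulfates outside the cell. It had 1714 and 1185 counts in *fuchi* pRNAi against 856 and 622 counts in untreated embryos at early stage 5 (0.97 ± 0.22, edgeR quasi-likelihood adjusted p = 0.0423, 0.00324 with the female as a block, 0.00436 by the likelihood ratio test and 0.00239 by DESeq2). With the block the number of members called at early stage 5 was 3, namely g16612, g7547 and g18939 (background 7.98%).

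More members were called between stages than between treatments, as was the case over all gene models, so this is not particular to the pathway. From stage 2 to stage 3, 8 of 55 members were called higher and 4 lower in *fuchi* pRNAi embryos, and 7 higher and 9 lower in untreated embryos (background 12.7% and 12.6%, against 17.2% and 15.7%). From stage 3 to early stage 5, 5 were higher and 7 lower in *fuchi* pRNAi embryos and 3 higher and 3 lower in untreated embryos (background 8.09% and 11.2%, against 7.7% and 10.6%). Glypican-6 (g11833) was among those that rose, 10.2-fold in *fuchi* pRNAi (edgeR adjusted p = 3.4e-05) and 11.7-fold in untreated embryos (adjusted p = 1.52e-05) from stage 2 to stage 3.

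The 5 gene models whose course over the 12 libraries was most like that of g5611 were found by the root mean square difference of log2 CPM, after each was centred on its own mean. The likeness was computed over 9709 gene models with a mean of at least 5 CPM, whose median difference was 1.84. First was g9493 (adhesion G protein-coupled receptor L1-like) at 0.63, followed by g15376 (laminin subunit alpha, a basement membrane protein) at 0.64 and g19348 (ATP-dependent RNA helicase A) at 0.65. The Ets gene g19580 came next at 0.66 and g2547 (uncharacterized) at 0.70. All 5 increased over the stages in both treatments, so the measure mostly reflects the rise that they share.

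Their response to *fuchi* pRNAi was less uniform. The likeness was computed on these same libraries, so responses resembling that of g5611 follow in part from the choice. At stage 2 the log2 fold changes were negative in all 5, between -0.67 and -0.37, where that of g5611 was -2.13. At stage 3, g19580 (1.58) and g9493 (0.96) were close to the 1.13 of g5611, whereas those of g15376 (0.14), g19348 (-0.02) and g2547 (0.02) were near 0. In CPM g9493 averaged 125 in *fuchi* pRNAi and 65.1 in untreated embryos at stage 3, and 171 against 173 at early stage 5. None of the 5 matched the depth of the stage 2 drop.

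**Figure D5:**
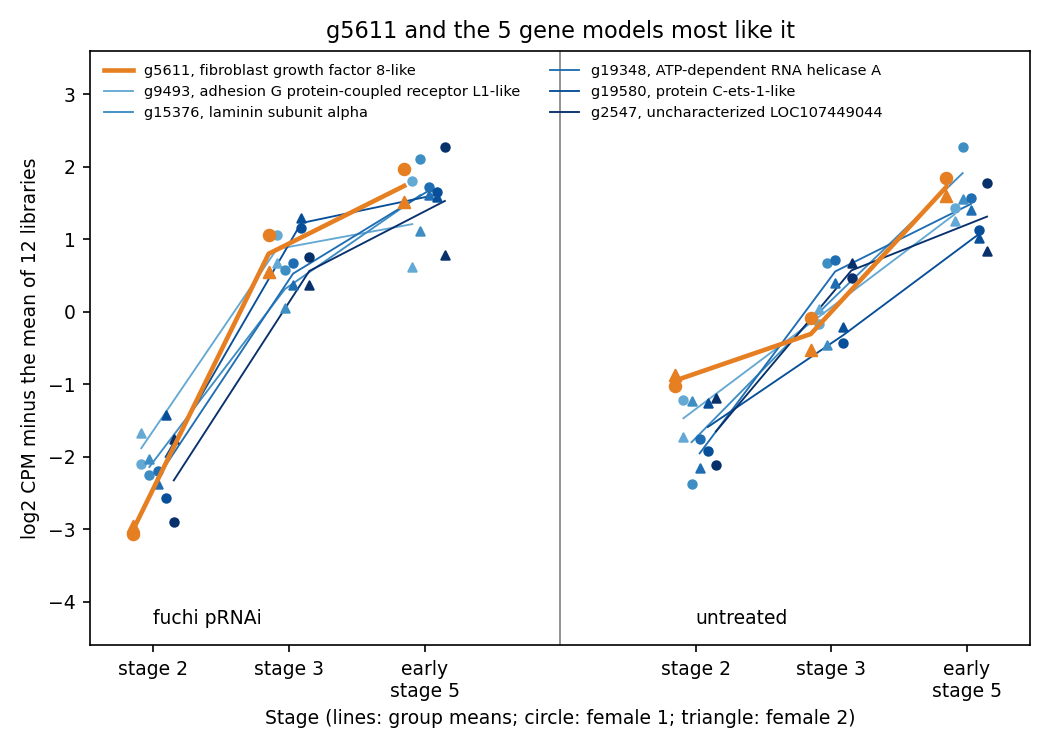
Log2 CPM minus the mean of the 12 libraries for g5611 (orange) and the 5 gene models most like it (blue), by stage, with *fuchi* pRNAi on the left and untreated embryos on the right, circles for the first female, triangles for the second and lines for the group means. All 6 increase over the stages, and g5611 has the lowest group mean in *fuchi* pRNAi at stage 2 and the highest in untreated embryos at stage 2.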

How the data were processed

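The authors deposited raw counts per gene model and library, made with htseq-count (HTSeq 0.6.1p1, per the labels) on gene models that AUGUSTUS predicted in the Ptep_1.0 assembly. The deposited RPKM values were also made by the authors. Aligner and strand setting: not given in the sources used here. Poly(A) RNA of pooled embryos was sequenced from strand-specific libraries.

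Each stage was fitted on its 4 libraries with edgeR 4.0.16 (R 4.3.3): TMM within the stage, at least 1 CPM in at least 1 library, and quasi-likelihood F tests with p adjusted by Benjamini-Hochberg and a threshold of 0.01. The filter, the fit per stage and the threshold follow the study, which used edgeR, and the quasi-likelihood test was chosen here. SEs are the absolute log2 fold change over the square root of F. Log CPM used a prior count of 2. Changes between stages came from 1 fit of all 12 libraries with TMM over them. Testing them in the pathway lists was added after the data were seen. Alternatives were the edgeR likelihood ratio test, DESeq2 1.42.0, RLE factors, no filter, the 12-library fit, a replicate block, limma 3.58.1 on log2(RPKM + 1) and log2(RPKM + 0.1), and leaving out each replicate.

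Replicate numbers pair the samples because each number is 1 female. Deviations from the group means of same-numbered libraries correlated with 0.579, 0.420 and 0.360 at the successive stages (across gene models). Replicates differed by more than sampling noise. They are 2 females, so p-values measure the spread between these 2.

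Pathway members came from description patterns (6 lists, 70 gene models, 66 found in the RefSeq table of assembly CAS_Ptep_4.0, used for names and neighbours only). Named were g5611, *fuchi*, all ligands and receptors, the called members of other lists or else their 2 with the highest mean RPKM, the 5 most similar gene models and the scaffold neighbour. Members and lists were chosen with earlier results of these data known. Scripts were tested on simulated data. Overlapping or near-identical gene models cannot be separated in these counts. Promoter sequence was not analysed here.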

Additional observations from a re-analysis of the deposited data

Results flagged for a closer look

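The effect of *fuchi* pRNAi on g5611 had opposite directions at stage 3 and stage 2 in both females, and the stage 3 effect exceeded the stage 2 effect by 3.23 on the log2 scale. The gene was chosen for this difference, so the difference was not tested.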

How the results depend on the processing

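The direction of the g5611 effect held at stage 2 (-2.23 to -2.04 without single replicates) and stage 3 (0.84 to 1.38), and so did the difference between these stages (2.95 to 3.49). With limma on log2(RPKM + 1), a scale that compresses low values, the stage 2 effect was -1.57, the difference 2.70, and the change from stage 2 to stage 3 was 3.00 in *fuchi* pRNAi and 0.31 in untreated embryos. Without single replicates the changes between stages ran from 3.62 to 4.13 and 0.67 to 1.21 in *fuchi* pRNAi, and from 0.36 to 0.87 and 1.82 to 2.28 in untreated embryos. At early stage 5 the effect was 0.03 in the fit of all 12 libraries (0.0266) and -0.25 to 0.14 without single replicates (0.140 without the second *fuchi* pRNAi and 0.0830 without the first untreated replicate), with adjusted p of 0.899 to 1 over the edgeR, DESeq2 and limma alternatives.

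With the female as a block, 1 pathway member was called at stage 3, beside 2.6% of all gene models. At early stage 5 the number was 3 with the block (7.98% of all gene models), the likelihood ratio test (6.74%), DESeq2 (4.3%) and no filter (4.95%). The block moved the count of all called gene models to 93, 346 and 986 at the successive stages, where the unblocked fits called 0, 36 and 386, and it turned no direction of g5611. The likelihood ratio test called 4, 141 and 833 gene models at the successive stages, DESeq2 12, 126 and 532, and the unfiltered fit 30, 208 and 898. Limma called 0 at stage 2, 10 and 11 at stage 3 (pseudocounts 1 and 0.1), and 343 and 350 at early stage 5. Of 255 alternatives in all, 210 kept the direction and side of the threshold, or the size, of the main value. With 2 females per group and 42 to 45 counts in the scarcest libraries, counting error limits the stage 2 value of g5611.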
